A study of Mus musculus with 10 samples.

Results

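Receptors for the constant region of antibodies, the signalling adaptors they share with other myeloid receptors, and the kinase that reads those adaptors were followed through a mouse RNA sequencing study of Apc-deleted oligodendrocyte precursor cells (OPCs) and of spinal cord immune cells in EAE, an autoimmune encephalomyelitis induced in mice as a multiple sclerosis model. The 8 genes, chosen by symbol, are Fcer1g, Tyrobp, Hcst, Fcgr1, Fcgr3, Fcgr4, Fcgr2b and Syk. All 8 have an entry among the 19333 genes of the OPC comparison and among the 22064 genes of the immune files. The study holds 10 libraries in 4 groups. Of the OPC cultures, 3 are wild type (Apc-fl/fl littermates) and 3 are Apc-deleted (Olig2-Cre:Apc-fl/fl, in which Cre follows the Olig2 gene of the oligodendrocyte lineage). OPCs were purified by immunopanning and grown for 3 days with PDGF-AA, and both genotypes carry the floxed allele. The immune cells came from spinal cords of Pdgfra-CreER:Apc-fl/fl mice 18 days after EAE induction. Of these, 3 libraries are cells sorted as CD11b+Gr-1+NK1.1+ and labelled cytotoxic macrophage, and 1 library is cells sorted as CD4+ and labelled Th1. All 4 immune libraries share that genotype and EAE, so they hold no comparison of Apc-deleted with control mice. Ages are not used here, and nothing in the labels says whether the libraries of a group came from separate animals or cultures. The p-values therefore measure the spread between libraries, which may be technical.

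Fc receptors let phagocytes and lymphoid cells bind antibody-coated targets. Activating receptors signal through a partner chain that carries an ITAM, a pair of tyrosines that Src-family kinases phosphorylate and that the kinase Syk then docks on. Fcgr2b instead carries an inhibitory motif (ITIM) that recruits the lipid phosphatase SHIP-1 and restrains the same pathway. In the nervous system these genes are best known from microglia and infiltrating phagocytes, where Tyrobp (DAP12) also serves the receptor Trem2.

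Of the 8 genes, 4 lie in 1 stretch of mouse chromosome 1. On GRCm38 with GENCODE M21 annotation, Fcgr2b (chr1:170958617-170976547, minus strand), Fcgr4 (chr1:171018920-171029761, plus strand), Fcgr3 (chr1:171051174-171064935, minus strand) and Fcer1g (chr1:171229572-171234365, minus strand) span 276 kb from the start of the first to the end of the last. Tyrobp (chr7:30413760-30417585, plus strand) and Hcst (chr7:30417712-30419854, minus strand) face each other with 126 bases between their ends. Fcgr1 (chr3:96282909-96293969, minus strand) and Syk (chr13:52583173-52648792, plus strand) lie apart from the rest.

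The sequence just before the transcription start is shown for the 5 genes whose window of 150 bases holds AGGAAG on either strand (CTTCCT on the other strand), letters that contain GGAA, the core recognised by ETS factors such as the myeloid regulator PU.1. The windows are RefSeq promoter entries on GRCm38.p6, read 5′ to 3′ on the gene's strand with the match in capitals, and the motif was chosen after the sequences were seen. Bases covered by a GENCODE M21 exon of the gene are left out at the right end.
Fcer1g, chr1:171234366-171234499, minus strand: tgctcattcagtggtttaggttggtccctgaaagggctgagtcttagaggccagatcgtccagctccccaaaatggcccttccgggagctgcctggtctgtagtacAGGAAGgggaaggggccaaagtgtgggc
Hcst, chr7:30419855-30420004, minus strand: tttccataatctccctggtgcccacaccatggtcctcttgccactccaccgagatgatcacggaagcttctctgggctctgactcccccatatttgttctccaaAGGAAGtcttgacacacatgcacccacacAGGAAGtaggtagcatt
Fcgr1, chr3:96293970-96294119, minus strand: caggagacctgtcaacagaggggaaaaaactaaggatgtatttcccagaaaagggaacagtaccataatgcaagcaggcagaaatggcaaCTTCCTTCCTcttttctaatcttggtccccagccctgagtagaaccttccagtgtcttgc
Fcgr3, chr1:171059404-171059553, minus strand: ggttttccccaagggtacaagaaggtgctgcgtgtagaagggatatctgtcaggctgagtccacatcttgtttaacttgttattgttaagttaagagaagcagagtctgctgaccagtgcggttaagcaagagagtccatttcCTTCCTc
Fcgr4, chr1:171018776-171018919, plus strand: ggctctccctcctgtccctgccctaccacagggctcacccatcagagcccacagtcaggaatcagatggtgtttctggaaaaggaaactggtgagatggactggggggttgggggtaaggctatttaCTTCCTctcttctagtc
The match begins 44 bases before the RefSeq start in Fcer1g, 23 in Fcgr4, and 46 and 17 in Hcst. In Fcgr1 a pair of matches that overlap begins 60 and 56 bases before the start. In Fcgr3 it begins 7 bases before 1 of its RefSeq start sites and 16 before the other. The Fcgr3 stretch lies inside the GENCODE span given above for that gene, whose outermost start on the minus strand is at 171064935. Of the 8 genes 7 matched an entry, Tyrobp being the other. The windows of Fcgr2b and Syk hold no match, and 19.7% of all 32851 promoter windows of the same length hold at least 1. A match is a run of letters, not a measured binding site.

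The libraries labelled macrophage held between 23174908 and 23564215 estimated reads over genes and the library labelled Th1 held 3051730. Against their labels, the libraries labelled macrophage carried neutrophil markers at a summed 434053 to 437137 TPM (14 of 14 markers at 1 TPM or more). Of that sum S100a8 alone gave a mean of 310396 TPM. Macrophage and monocyte markers were present too, at 29879 to 30437 TPM (13 of 14 at 1 TPM or more), of which Lyz2 gave a mean of 22679. NK markers summed to 28.4 to 29.6 TPM (4 of 11 at 1 TPM or more), of which Nkg7 gave a mean of 16.6. Klrb1c, the gene of the sort antigen NK1.1, stood at 0.07, 0.1 and 0.05 TPM. In the library labelled Th1, 12 of 14 T-cell markers had no read, Cd4 and Cd3e among them. Neutrophil markers summed to 25191 TPM there (9 of 14 with over 3 reads), of which S100a8 gave 13945. Macrophage and monocyte markers summed to 12417 TPM (11 of 14 with over 3 reads), of which Lyz2 gave 11006. All 4 immune libraries are therefore named by their labels throughout. In the authors' deposited table for OPCs, the 7 neuronal markers had mean normalized counts from 8117 (Snap25) to 122255 (Tubb3). The 7 OPC markers there had means from 1046 (Cspg4) to 11343 (Olig1), with Pdgfra at 2251. The ranges overlap only because Olig1 lay above Snap25. Every other OPC marker had at most 4836 (Matn4), and every other neuronal marker had at least 13068 (Rbfox3). The authors' deposited table gives Apc itself a log2 fold change of −0.14 (SE 0.13, not called), a value for the whole gene that does not isolate the floxed exons.

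The ITAM adaptors were among the most abundant transcripts of the libraries labelled macrophage. Tyrobp, the ITAM adaptor DAP12, stood at 10301, 10825 and 10755 TPM (a share of all transcripts, corrected for transcript length) in libraries A, B and C, lettered here in file order. Its mean of 10627 ± 284 TPM (SD, n = 3) ranked 6 among all genes. Fcer1g, the common Fc receptor gamma chain, stood at 6797, 6590 and 6633 TPM, with a mean of 6673 ± 110 (SD, n = 3) and rank 15. The libraries labelled macrophage differed little from each other for either gene, and every Tyrobp value lay above every Fcer1g value. Hcst, which encodes DAP10, an adaptor with a YINM motif that recruits PI3-kinase in place of Syk, stood far lower at 323, 326 and 329 TPM (mean 326 ± 3.01, SD, n = 3).

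Among the receptors, Fcgr3 led. This low-affinity activating receptor (CD16) stood at 293, 300 and 299 TPM (mean 297 ± 3.39, SD, n = 3), below the lowest Hcst value. Fcgr4, an activating receptor for IgG2 subclasses, followed at 50.7, 51.0 and 51.0 TPM (mean 50.9 ± 0.183). Fcgr2b, the inhibitory receptor, stood at 35.2, 33.6 and 35.1 TPM (mean 34.6 ± 0.90). Fcgr1, the high-affinity receptor CD64, stood at 25.3, 25.3 and 24.8 TPM (mean 25.2 ± 0.277). Syk had the lowest level of the 8 genes, at 6.70, 6.71 and 6.85 TPM (mean 6.75 ± 0.084). No neighbours in this order overlapped between the 3 libraries labelled macrophage, although the step from Hcst to Fcgr3 was small.

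Together the 8 genes held 1.78, 1.82 and 1.81% of all TPM in the libraries labelled macrophage (mean 1.80%). The 3 adaptors exceeded the 4 receptors by 43.1, 43.3 and 43.2 times in summed TPM. Activating Fcgr3 exceeded inhibitory Fcgr2b by 8.34, 8.92 and 8.52 times in TPM. That ratio is uncertain, since reads of Fcgr2b and Fcgr3, whose sequences are closely alike, were shared out between them by the authors' counting. Their fractional values add up to whole reads in each library.

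The library labelled Th1 held a different set. Tyrobp remained the highest of the 8 there, at 784 TPM from 1100 reads. Fcgr1 came next at 167 TPM from 1321 reads, and Syk followed at 30.4 TPM from 485 reads. Fcer1g, the chain that Fcgr1 signals through, stood at 5.99 TPM from 10 reads. Fcgr3 stood at 3.87 TPM and Fcgr2b at 0.98 TPM, from 14.99 and 4.01 estimated reads. Hcst and Fcgr4 had no value there, taken as no read, where 3 reads would be 0.983 CPM (reads scaled to a common library total). In this 1 library, then, CD64 and Syk lay above all values of the libraries labelled macrophage, and the other 6 genes lay below them.

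**Figure D1:**
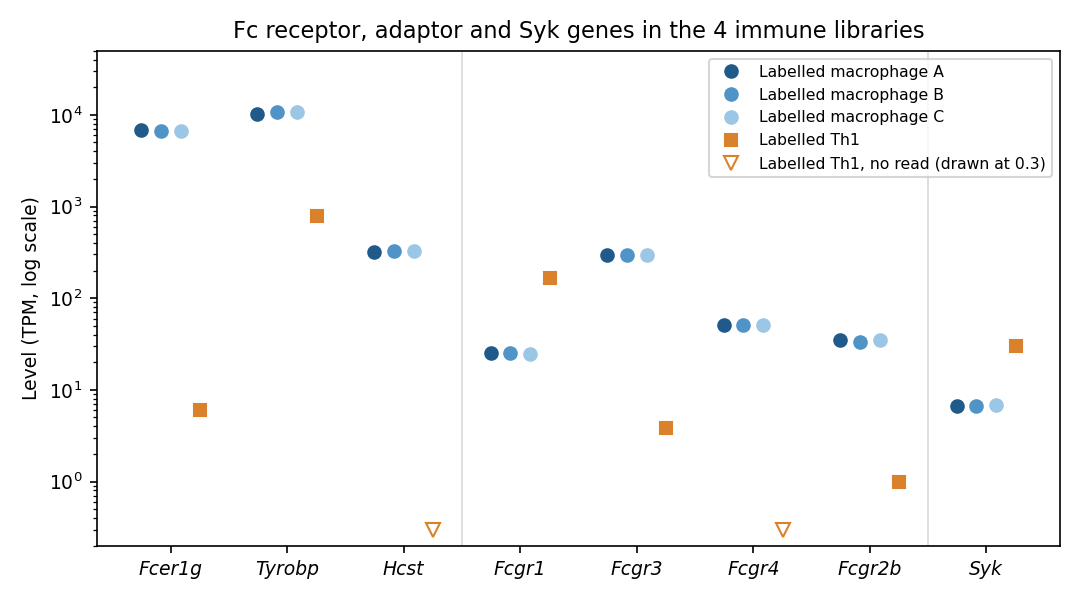
Level of each gene (TPM, log axis) in libraries A, B and C, labelled macrophage (circles), and in the library labelled Th1 (squares, or open triangles where it had no read, drawn at an arbitrary 0.3). The 3 circles of each gene nearly coincide; only Fcgr1 and Syk are higher in the library labelled Th1.

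Tested with edgeR's quasi-likelihood test over 11447 genes, all 8 passed an adjusted p of 0.05 with at least a 4-fold difference. Fcgr1 was higher in the library labelled Th1 by 3.36 on the log2 scale (SE 0.06, adjusted p = 6.14e-25) and Syk by 2.69 (SE 0.08, adjusted p = 2.73e-19). Of all tested genes 13.7% were called higher and 54.6% were called lower, so 6 of 8 lower is near the background. Tyrobp had a log2 difference of −2.92 (SE 0.04, adjusted p = 5.83e-26) and Fcer1g one of −9.33 (SE 0.10, adjusted p = 1.62e-28). Fcgr3 had −5.60 (SE 0.14, adjusted p = 8.06e-21) and Fcgr2b −4.50 (SE 0.35, adjusted p = 4.91e-11). Hcst and Fcgr4, 2 of the 8, had no read in the library labelled Th1, as had 47.4% of all tested genes. At a floor of 3 reads there, the smallest bounds over 3 scalings were 19.0-fold lower for Hcst and 13.2-fold for Fcgr4. These bounds cover counting error only. That library had reads for 6550 genes, against 13655 to 13739 in the libraries labelled macrophage, and a wider loss of genes was not tested.

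The test compares these libraries, not cell types, because the group of 1 library has no spread of its own and is assumed to vary like the libraries labelled macrophage. The scaling also moves every value. The median gene differed by −5.61 with TMM, by −4.32 with DESeq2 size factors and by −6.25 with library totals. The split of all calls was 1567 higher and 6253 lower with TMM, 2009 and 3455 with DESeq2 size factors, and 1098 and 8172 with totals. All 8 directions held under each, but with totals Fcgr1 and Syk, at 1.87 and 1.20, were under 4-fold, and with DESeq2 size factors Tyrobp, at −1.40, was under it. Relative to the median gene with TMM, Fcgr1 lay 8.98 higher, Syk 8.30 and Tyrobp 2.69, Fcgr3 lay 0.01 from it, and Fcer1g lay at −3.71. That median depends on the 47.4% of tested genes with no read in the library labelled Th1. Among tested genes with a read there the median was −1.46, so that Fcgr1 and Syk again lay above it but Tyrobp, at −2.92, lay below it, as did Fcgr3, Fcgr2b and Fcer1g.

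Shares of reads within the gene group do not depend on the scaling. Fcer1g made up 44.7, 42.8 and 43.1% of the summed Fcer1g and Tyrobp reads in the libraries labelled macrophage. In the library labelled Th1 it made up 0.901% (exact 95% interval 0.433 to 1.65%, counting error only). The ITAM adaptor reads were thus shared almost evenly in all 3 libraries labelled macrophage and were nearly all Tyrobp in the other library. Read shares are not corrected for transcript length. In TPM, Fcer1g stood at 66.0, 60.9 and 61.7% of Tyrobp in the libraries labelled macrophage and at 0.764% in the library labelled Th1. Fcgr1 made up 12.3, 12.1 and 11.9% of the reads of the 4 Fcγ receptors in the libraries labelled macrophage and 98.6% (97.8 to 99.1%) in the library labelled Th1. Fcgr3 made up 68.3, 68.9 and 68.8%, against 1.12% (0.628 to 1.84%). The receptor that led one set was minor in the other, with no overlap of the intervals. Fcgr4 made up 10.7% in each library labelled macrophage, against 0 of 1340 reads, which allows up to 0.275%. Syk made up 0.461, 0.469 and 0.471% of the reads of all 8 genes, against 16.5% (15.2 to 17.9%).

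**Figure D2:**
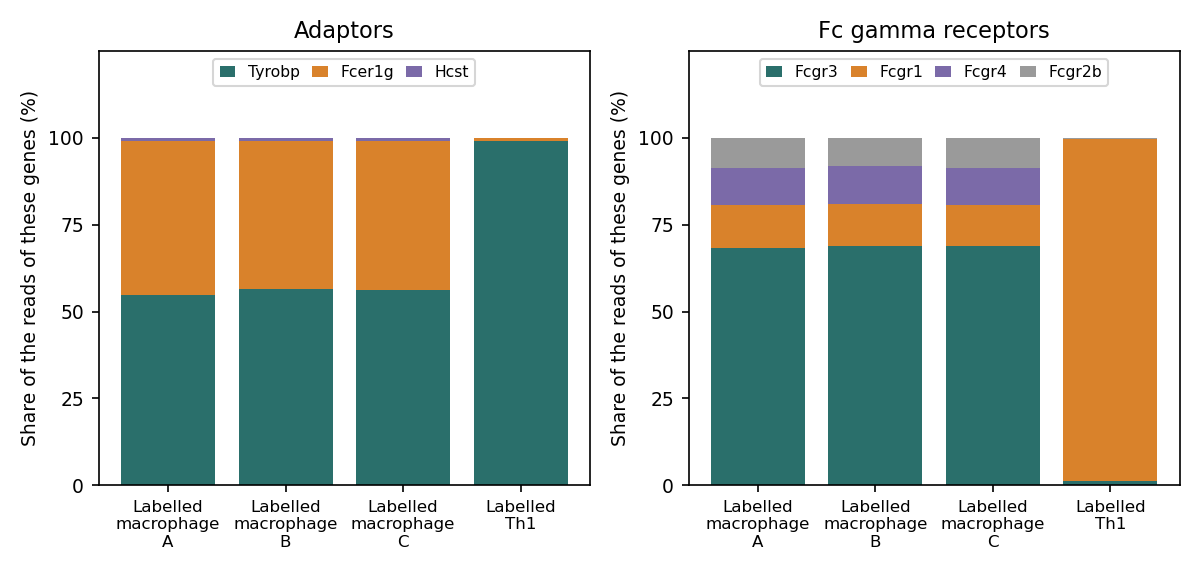
Share (%) of the reads of the 3 adaptors (left) and of the 4 Fcγ receptors (right) that each gene took in each immune library. The 3 bars labelled macrophage are alike, with Tyrobp beside Fcer1g and Fcgr3 in the lead; in the library labelled Th1 Tyrobp took 99.1% and Fcgr1 98.6%.

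Levels of the partners of these adaptors were read from 6 lists of 118 genes. In the libraries labelled macrophage 22 of 30 other receptors that pair with ITAM or YINM adaptors reached 1 TPM, led by Trem3 (149 TPM), Sirpb1c (91.3), Cd300c2 (87.9), Clec4d (87.6) and Pilrb1 (77.3). Klrk1, the NKG2D receptor that uses DAP10, stood at 1.75, 0.93 and 1.37 TPM, and Fcer1a, the IgE-binding chain that pairs with Fcer1g, had no value in any of the 4 libraries. Of the inhibitory receptors 15 of 20 reached 1 TPM, led by Lilrb4a (156) and Clec4a3 (134). The kinases and signalling genes reached it in 26 of 35 cases. Rac2, a small GTPase, stood at 267 TPM, and the Src-family kinases Lyn and Fgr stood at 26.4 and 18.2 TPM. Among inhibitory phosphatases and adaptors Dok3 stood at 40.8 TPM and Ptpn6, which encodes SHP-1, at 39.4 TPM. Other Fc receptors were low: the neonatal receptor Fcgrt stood at 2.27 TPM and Fcrls at 1.84 TPM.

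Of 97 tested genes in these lists, 7 were called higher and 72 lower in the library labelled Th1, against 13.7% higher and 54.6% lower over all tested genes. The share called higher was thus below that of all genes, and the 7 are given as single values. The higher ones included the Syk-coupled receptors Clec4n (Dectin-2, 1549 TPM from 5516 reads, against a mean of 6.23 in the libraries labelled macrophage) and Trem2 (274 TPM against 59.6). Clec4n pairs with Fcer1g and Trem2 with Tyrobp. The ITIM receptors Cd72 (519 TPM against 0.64) and Sirpa (90.0 against 10.8) were also called higher, as were Ptprc (148 against 40.4), Malt1 (131 against 1.22) and Lck (66.3 against 0.16). Of these, Lck, a T-cell kinase, was the only T-cell marker with over 3 reads, at 422.

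**Figure D3:**
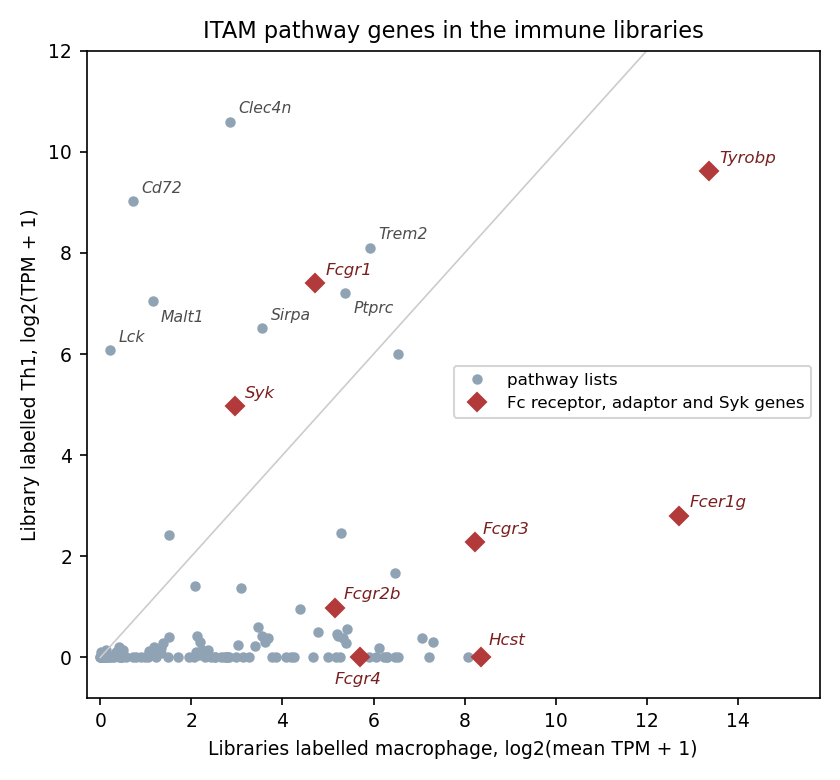
Mean level in the libraries labelled macrophage (x axis) against level in the library labelled Th1 (y axis), both as log2(TPM + 1), for the 8 genes (diamonds) and the pathway lists (circles); the line marks equal levels. Fcgr1 and Syk lie above the line with the 7 labelled pathway genes, and most other points lie near 0 on the y axis.

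By distance over the 4 immune libraries on the log2(TPM + 1) scale, the genes nearest to Tyrobp were Cd52 (distance 1.09), Ngp (1.12) and Crip1 (1.48). Those nearest to Fcer1g were Gpx1 (1.41), Lcn2 (1.75) and Ly6c2 (2.81). The neighbours of Tyrobp held between 535 and 874 TPM in the library labelled Th1, and those of Fcer1g between 0 and 17.0 TPM. These distances rest on 4 libraries and mostly on the difference between that 1 library and the other 3.

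In OPC cultures the question was how gene expression differs when Apc, a brake on Wnt signalling, is deleted. The authors' deposited table gives 1 mean, fold change and test per gene, with no value per library, and the sign was read from Wnt targets so that positive means higher in Apc-deleted cultures. By the adjusted p-values of the authors' deposited table, 0 of the 8 genes passed 0.05, where 0.393% of all genes were called higher. All 8 fold changes in the authors' deposited table were above 0, against 50.3% of all genes, with a median of 0.57 on the log2 scale, against 0.00144 over all genes. At an unadjusted p under 0.05, the authors' deposited table has 4 of 8 higher, where 2.62% of all genes were.

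The ITAM adaptors Tyrobp and Fcer1g had the largest fold changes of the 8, while the adaptor Hcst had too few counts to place. In the authors' deposited table Tyrobp had a mean of 86.8 normalized counts and a log2 fold change of 1.65 (SE 0.48, p = 5.16e-04, adjusted p = 0.0845). Assuming 3 libraries of each genotype, the authors' deposited table implies a Tyrobp mean of 41.9 in wild-type and 132 in Apc-deleted cultures. In the authors' deposited table Fcer1g had a mean of 81.1 and a log2 fold change of 1.49 (SE 0.42, p = 3.42e-04, adjusted p = 0.0622), an implied mean of 42.5 against 120. Tyrobp and Fcer1g differed by nearly the same factor, and neither passed the adjusted threshold. Per the authors' deposited table, the SE of Tyrobp was 1.92 times and that of Fcer1g 1.66 times the median SE of genes of similar mean, a wide spread between libraries. Hcst was low in the authors' deposited table, at a mean of 7.49 and a log2 fold change of 0.28 (SE 0.71). Its 95% interval of −1.11 to 1.67 holds the values of both Tyrobp and Fcer1g, so a shared difference can be neither seen nor excluded.

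Fcgr3 was the most counted receptor here too. The authors' deposited table gives it a mean of 203 and a log2 fold change of 0.56 (SE 0.22, p = 0.0106, adjusted p = 0.693). Per kb of exon, Tyrobp (130) and Fcgr3 (117) had similar mean normalized counts in the authors' deposited table, with Fcer1g at 92.8. Syk had a mean of 102 and a log2 fold change of 0.59 (SE 0.21, p = 0.00471, adjusted p = 0.397) in the authors' deposited table. Fcgr1 had a mean of 17.6 and a log2 fold change of 0.05 (SE 0.46) in the authors' deposited table, whose 95% interval of −0.85 to 0.96 leaves differences of nearly 2-fold either way undetectable. Fcgr4 and Fcgr2b had means of 7.35 and 4.42 in the authors' deposited table and log2 fold changes of 0.68 (SE 0.75) and 0.35 (SE 0.91), too few counts to place.

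Phagocyte markers moved with the adaptors. Of 12 measured macrophage and monocyte markers, Fcgr1 among them, 2 were called higher in the authors' deposited table: Lyz2 by 4.33 (SE 0.96) and Cd68 by 1.54 (SE 0.36). Adgre1 (1.87, SE 0.65), Cd14 (1.78, SE 0.61) and Ms4a7 (1.59, SE 0.60) had log2 fold changes like those of Tyrobp in the authors' deposited table without passing. Csf1r (0.01, SE 0.16), Mertk (0.00, SE 0.15) and Cx3cr1 (0.07, SE 0.12) lay close to 0 in the authors' deposited table, at means of 582 to 1662. The 10 microglia markers had 5 fold changes above 0 and 5 below in the authors' deposited table, with a median of 0.01 and 0 called. At an unadjusted p under 0.05, however, 4 of the 10 passed in the authors' deposited table, where 2.62% of all genes were higher. These were Tmem119 (0.87, SE 0.31), Sall1 (0.85, SE 0.26), Trem2 (0.58, SE 0.24) and Fcrls (0.42, SE 0.21), all higher. Of 11 neutrophil markers 10 were below 0 in the authors' deposited table, with a median of −0.18. The part of phagocytes in the adaptor values was not tested, and in bulk cultures more such cells and more RNA per cell cannot be told apart.

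**Figure D4:**
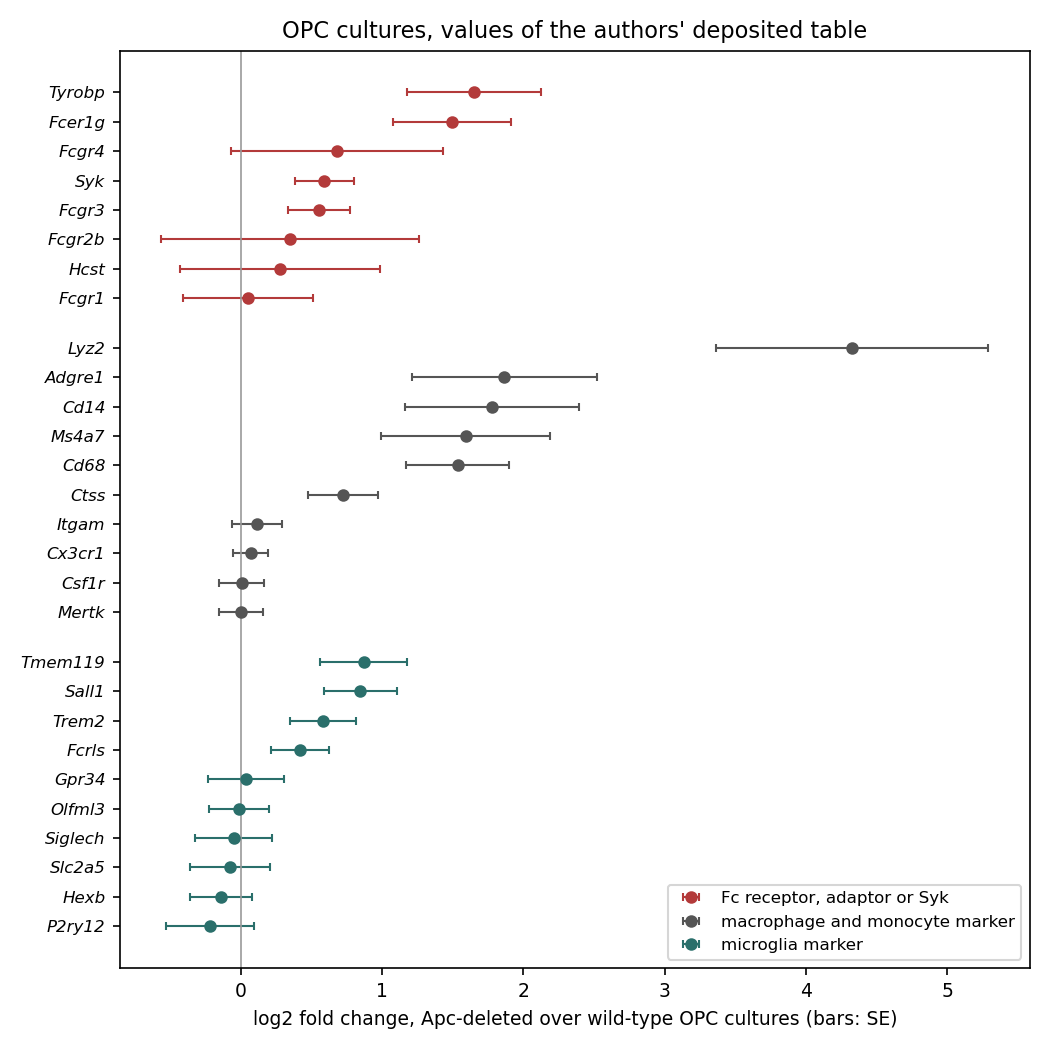
Log2 fold change of Apc-deleted over wild-type OPC cultures with its SE, from the authors' deposited table, for the 8 genes, 10 macrophage and monocyte markers and 10 microglia markers. Tyrobp and Fcer1g lie with Adgre1, Cd14, Ms4a7 and Cd68, while Fcgr1 lies near 0 with Csf1r, Mertk and Cx3cr1.

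The other pathway genes showed no called change either. Of the 118 listed genes, 74 were measured in the authors' deposited table, 53 were above 0, 0 passed the adjusted p and 15 had an unadjusted p under 0.05, 13 of them higher, with a median of 0.32. Over all genes 50.3% were above 0, 0.393% were called higher and 2.62% were higher at that unadjusted p in the authors' deposited table. For the 9 receptors that pair with the adaptors, the median in the authors' deposited table was 0.58, with Clec4d at 3.15 (SE 1.44), Cd300ld at 2.66 (SE 1.01), Clec7a at 1.64 (SE 0.78) and Trem2 at 0.58 (SE 0.24). Mean normalized counts were only 22.0 for Clec4d, 5.79 for Cd300ld and 7.72 for Clec7a, against 145 for Trem2, so the values of Cd300ld and Clec7a rest on too few counts to place. For the 15 inhibitory receptors the median in the authors' deposited table was 0.71, 13 lay above 0, and the nearest to a call was Sirpa, the receptor for CD47, at 0.71 (SE 0.21, adjusted p = 0.115). The 34 kinases and signalling genes had a median of 0.07 in the authors' deposited table, with 21 above 0 and 13 below. Blnk, a Syk substrate, was at 1.16 (SE 0.39, adjusted p = 0.301) and Fyn, a Src-family kinase also expressed in oligodendrocytes, at −0.31 (SE 0.12) in the authors' deposited table. The 10 inhibitory phosphatases and adaptors had a median of 0.14 in the authors' deposited table. The receptor lists thus lay mostly above 0 and the kinases lay around it, a contrast that was not tested.

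**Figure D5:**
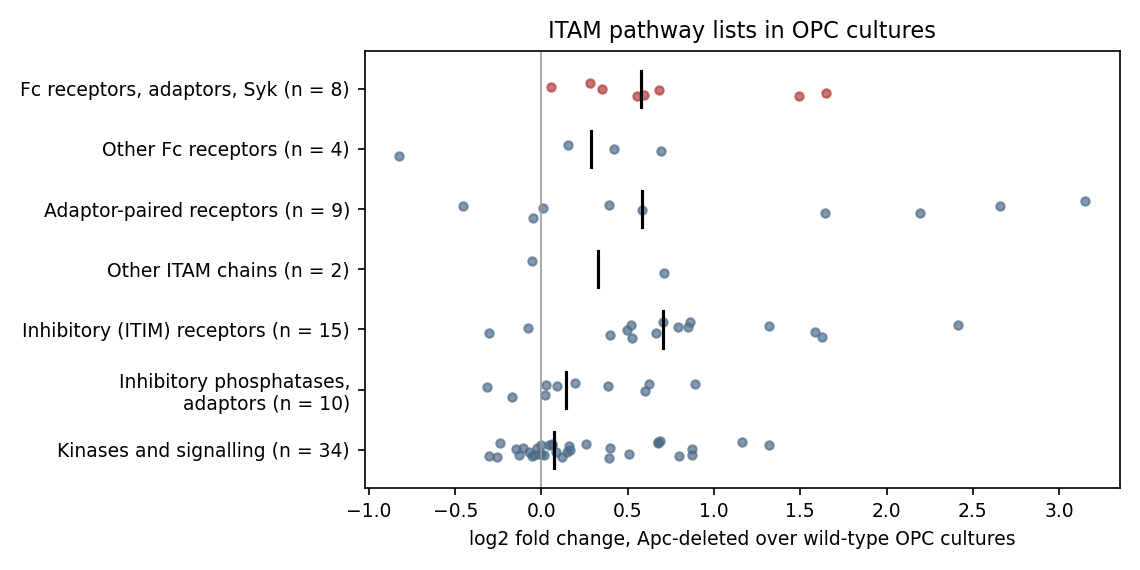
Log2 fold change of Apc-deleted over wild-type OPC cultures in the authors' deposited table, for the 8 genes and 6 pathway lists; each point is a gene, jittered vertically, and black bars are medians. The medians run from 0.07 for kinases and signalling to 0.71 for inhibitory receptors.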

How the data were processed

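Per the labels' protocols, Trizol-extracted RNA was sequenced on an Illumina HiSeq. The submitters' processing notes name GRCm38 as the build. Aligner and counting tool: not given in the sources used here. For OPCs the authors deposited 1 comparison table. Per the file headers it holds a mean of normalized counts (a signal with no value per library), a log2 fold change with SE, a score equal to their ratio, and a p-value before and after adjustment. The immune files hold TPM and estimated counts computed by the authors, per the file headers. 8 other columns, the FPKM and normalized read count of each immune library, were not used.

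Macrophage columns carry codes found in no label, so they were assigned to the group only. The libraries labelled macrophage differed from each other beyond sampling noise (chi-square per degree of freedom 1.29 to 2.53 over genes with at least 20 reads), so none was merged. Their common biological coefficient of variation was only 0.0222, so they may be repeat libraries of 1 sample, and p-values against them may then be too small. Estimated counts were rounded, with blanks set to 0. The library labelled Th1 was compared with them by edgeR 4.0.16 (TMM, filterByExpr, quasi-likelihood test, Benjamini-Hochberg). A call needed 4-fold and an adjusted p below 0.05; SEs are back-calculated. Tested on simulated data for 11447 genes, the script found 50 of 50 genes made 8-fold higher and 44 of 50 made 8-fold lower. At 3-fold, under the 4-fold that a call needs, it found 1 of 50 and 5 of 50, which follows from that threshold. The simulated single library was drawn from the macrophage means with 11247 genes unchanged. In the data 47.4% of tested genes had no read in the library labelled Th1. The simulation therefore does not show how scaling or test perform under that imbalance. DESeq2 1.42.0, limma 3.58.1 on log2(TPM + 1), R 4.3.3 and Python 3.11.15 were used for alternatives and tables. The design had assumed values per library for OPCs; with a comparison table, the authors' tests were used as deposited.

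The genes and lists were chosen with earlier results of these data known. Named genes were all 8, the called or smallest-p list genes, the highest per list in the libraries labelled macrophage, and the nearest 3 to Tyrobp and Fcer1g; other list genes named to describe a role were chosen after their values were seen. A few list genes are not reported here by name.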

Additional observations from a re-analysis of the deposited data

How the results depend on the processing

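Over 64 recomputed values of the 8 genes in the comparison of the library labelled Th1 with the libraries labelled macrophage, 60 kept their call, 4 dropped under 4-fold and 0 changed direction. Those 4 were Fcgr1 (1.87) and Syk (1.20) with library totals, and Tyrobp with DESeq2 size factors (−1.40) and with the DESeq2 Wald test (−1.57). Leaving out any library labelled macrophage left the direction and the 4-fold difference of each gene in place. Those libraries were nearly alike (biological coefficient of variation 0.0222), so leaving 1 out could hardly change a call. These runs are among the 64 values, and the single library labelled Th1 could not be left out. Counted by reads and not TPM, the 8 genes held 1.48% of the libraries labelled macrophage in place of 1.80%. In OPCs, adjusting the authors' p-values only over genes with a mean of at least 10 gave Fcer1g 0.0504 and Tyrobp 0.0684, so 0 of 8 still passed. Leaving out OPC libraries was not run, since the comparison table has no value per library. No paired analysis was possible because that table has no value per library and the title of the library labelled Th1 carries no number. At the depth of the library labelled Th1, genes under 0.983 CPM could not be told from 0.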
